A study of Mus musculus with 9 samples.

Results

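The 4 keratins of simple, single-layered epithelium, Krt7, Krt8, Krt18 and Krt19, were followed in mouse embryonic stem (ES) cells with and without Xpc. These 4 genes, of 19913 genes tested on the arrays, were chosen by name from values measured on these same arrays, which were known for all 3 comparisons. Their values below are therefore a description and carry no test. They are measured by 5 probes, 2 of them for Krt8, and all 5 probes lay well above background on all 9 arrays, so all 4 genes passed the filter on dim probes.

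Keratins are the intermediate filament proteins of epithelial cells. A filament is built from pairs of 1 type I and 1 type II chain, so neither type polymerises alone. Krt7 and Krt8 are type II chains and Krt18 and Krt19 are type I chains. Krt8 and Krt18 are the first keratins that the mammalian embryo makes, in the outer cells that become the trophectoderm, and Krt7 and Krt19 also mark the trophectoderm and later simple epithelia. Desmosomes and hemidesmosomes anchor these filaments to the cell surface through plakin proteins such as desmoplakin.

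RNA came from 3 groups of ES cells, each with 3 arrays. The null cells were a subclone in which Xpc, a sensor of DNA damage in nucleotide excision repair, is knocked out for good. The induced cells were labelled "+Tx" and were taken at day 4 after Cre-loxP deletion of Xpc, and the floxed cells, labelled "-Tx", carried the loxP-flanked gene without deletion. The abbreviation is not expanded in the sources used here, no group was treated without losing Xpc, and the null group stands for 1 subclone, so the subclone and the loss of Xpc cannot be told apart. The labels do not say whether the arrays of a group came from separate cultures, so the spread between arrays and the p-values may be technical. The series' title asks whether the C-terminal part of Xpc is needed by the stem cell factor Oct3/4.

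Values are the log2 processed signal of a probe minus that of its array's 75th percentile, called the log2 level, so 0 is the 75th percentile of the array. Floxed array 3 stood apart from the other floxed arrays. On the first principal component of all genes, which held 47.3% of the variance, it scored 24.2, while null arrays scored 29.1 to 36.2, induced arrays -22.8 to -14.9 and floxed arrays 1 and 2 -32.6 and -33.9. It shared its slide, slide 2, with null array 3. Slide 3 held null arrays 1 and 2 and all induced arrays, and slide 1 held floxed arrays 1 and 2, so no slide held both induced and floxed arrays. Each slide was scanned as a set. The targeted gene, Xpc, had log2 levels of -0.85, -1.53 and -1.37 on null arrays, -1.11, -0.68 and -1.05 on induced arrays and 0.59, 0.55 and 0.16 on floxed arrays. Its level in null cells was 1.68 lower than in floxed cells on the log2 scale (limma adjusted p = 0.00584), and the -1.38 in induced cells against floxed cells did not pass (limma adjusted p = 0.224). Which exons were deleted, and so whether the Xpc probe lies in them, is not given in the sources used here. The stem cell factors Pou5f1 (which encodes Oct3/4) and Sox2 were well above background on every array, with Pou5f1 at mean log2 levels of 4.29, 4.80 and 4.84 and Sox2 at 3.91, 4.12 and 4.09 in null, induced and floxed cells.

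The 60-base probes below carry the keratin measurements, and they are shown because each value in the text is the brightness of one of these sequences. They are given 5′ to 3′ as the arrays hold them, with the submitters' mm9 positions. The Krt7 probe lies at chr15:101253718-101253777 (plus strand) and the Krt8 probe designed on NM_031170 at chr15:101828827-101828886 (minus strand). The Krt18 probe lies at chr15:101862341-101862400 (plus strand) and the Krt19 probe at chr11:100002392-100002451 (minus strand). The other Krt8 probe, designed on AK166854, lies at chr15:101827138-101827197 on the minus strand. Exon borders of mm9, and binding of a probe to RNA of other genes, were not analysed here.
Krt7: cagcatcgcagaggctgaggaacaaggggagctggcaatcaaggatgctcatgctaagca
Krt8 (NM_031170): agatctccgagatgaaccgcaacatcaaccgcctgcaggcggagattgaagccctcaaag
Krt18: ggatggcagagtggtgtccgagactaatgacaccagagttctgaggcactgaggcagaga
Krt19: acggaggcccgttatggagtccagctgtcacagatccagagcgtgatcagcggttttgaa

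All 4 keratins had their lowest levels in null cells. In null cells their mean signals were 27.6% to 45.8% of those in floxed cells, and in induced cells 60.4% to 82.6%. The mean ran in the order null, induced, floxed for each of the 5 probes. Null arrays did not overlap floxed arrays for 4 of 4 genes, nor induced arrays for 4 of 4 genes. Induced and floxed arrays did not overlap for Krt8 and Krt19, 2 of 4 genes, but did for Krt7 and Krt18. Of all genes tested, 11.4% were lower without overlap in null against floxed cells, 6.26% in induced against floxed cells and 18.3% in null against induced cells; since these contrasts chose the keratins, nothing is read from the difference. The median log2 difference of the 4 genes was -1.60, -0.54 and -0.98 in those comparisons, and that of all genes was 0.01, -0.00 and 0.02. These are bulk samples, in which fewer keratin-positive cells and less keratin RNA per cell cannot be told apart.

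**Figure D1:**
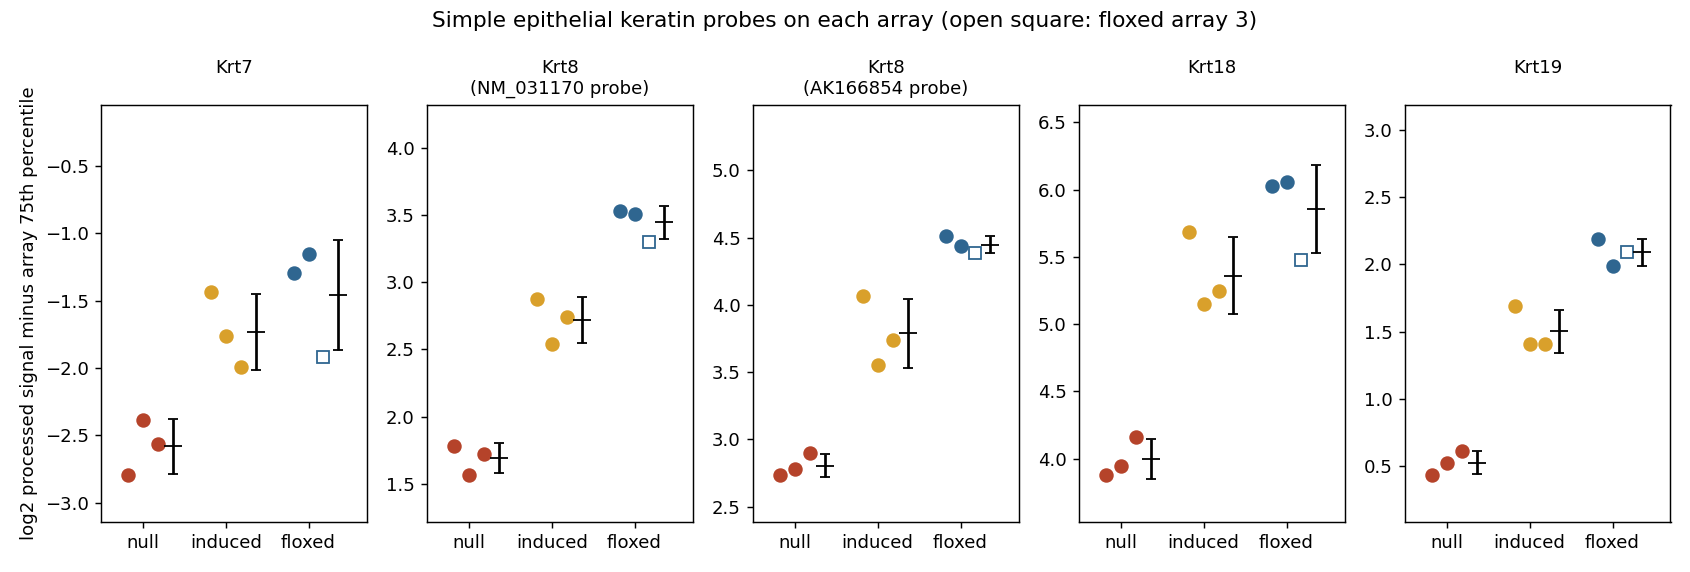
Log2 level (log2 processed signal minus the array's 75th percentile) of each keratin probe on the 9 arrays, by group. Points are arrays, bars are the mean ± SD of 3 arrays, the open square is floxed array 3 and each panel spans the same number of log2 units; null arrays lie lowest for every probe, and floxed array 3 lies among the induced arrays for Krt7 and Krt18 only.

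Among the type II chains, Krt8, the partner of Krt18 in the earliest embryonic filaments, was read by 2 probes. At the AK166854 probe, the brighter one, the log2 levels were 2.74, 2.78 and 2.90 on null arrays, 4.06, 3.56 and 3.74 on induced arrays, and 4.52, 4.44 and 4.39 on floxed arrays. The 3 groups form separate steps with no overlap, and floxed array 3 lies with the other floxed arrays. The group means were 2.81 ± 0.08, 3.79 ± 0.26 and 4.45 ± 0.06 (SD, n = 3 arrays each) in null, induced and floxed cells. The null mean was 1.64 below the floxed mean on the log2 scale, which is 32.0% of the floxed signal, and the induced mean was 0.66 below it, at 63.3%. The null mean was 0.98 below the induced mean. The NM_031170 probe gave 1.78, 1.57 and 1.72 on null arrays, 2.87, 2.54 and 2.74 on induced arrays and 3.53, 3.51 and 3.30 on floxed arrays. Both probes thus show the same 3 separate steps. The differences at this second probe were -1.75 for null minus floxed, -0.73 for induced minus floxed and -1.02 for null minus induced.

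Krt7, the other type II chain, was the dimmest of the measured probes in processed signal, between 66.1 and 178 units. It had log2 levels of -2.79, -2.39 and -2.57 on null arrays, -1.43, -1.77 and -1.99 on induced arrays and -1.29, -1.15 and -1.92 on floxed arrays. Null arrays lie below all others, while induced arrays overlap floxed array 3. Its means were -2.58 ± 0.20 in null, -1.73 ± 0.28 in induced and -1.46 ± 0.41 in floxed cells (SD, n = 3 arrays each). The null mean was 45.8% of the floxed signal, a log2 difference of -1.13, and 0.85 below the induced mean. The induced mean lay within the floxed spread, with a log2 difference of -0.28. With another background correction (normexp) the difference of null from floxed cells was -0.58 and that from induced cells -0.35, about as in the submitters' series matrix (-0.59 and -0.35).

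Of the type I chains, Krt18 had log2 levels of 3.88, 3.95 and 4.16 on null arrays, 5.69, 5.15 and 5.25 on induced arrays and 6.03, 6.06 and 5.48 on floxed arrays. Null arrays stand clear of the rest, and floxed array 3 falls between induced array 1 and the other induced arrays. The means were 4.00 ± 0.15, 5.36 ± 0.29 and 5.85 ± 0.33 (SD, n = 3 arrays each) in null, induced and floxed cells. The null mean was 27.6% of the floxed signal (log2 -1.86), the lowest share of the 5 probes, and 38.8% of the induced signal (log2 -1.36). The induced mean was 71.1% of the floxed signal (log2 -0.49). It lay below every floxed array, the lowest being array 3 at 5.48, while induced array 1, at 5.69, lay above floxed array 3.

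Krt19, a type I keratin that lacks most of the tail domain, had log2 levels of 0.44, 0.53 and 0.61 on null arrays, 1.69, 1.41 and 1.41 on induced arrays and 2.19, 1.99 and 2.09 on floxed arrays. The 3 groups do not overlap, and floxed array 3 lies between the other floxed arrays. The means were 0.53 ± 0.09 in null, 1.50 ± 0.16 in induced and 2.09 ± 0.10 in floxed cells (SD, n = 3 arrays each). The null mean was 33.8% of the floxed signal (log2 -1.56) and 50.8% of the induced signal (log2 -0.98), and the induced mean was 66.6% of the floxed signal (log2 -0.59).

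Leaving out floxed array 3 made the differences of Krt7 and Krt18 larger and moved those of Krt8 and Krt19 little. Without it, null minus floxed was -1.36 for Krt7, -2.05 for Krt18, -1.82 and -1.67 for the Krt8 probes and -1.56 for Krt19. Induced minus floxed was then -0.51, -0.68, -0.80, -0.69 and -0.59 in the same order of probes. On slide 2 alone, null array 3 minus floxed array 3 was -0.65 for Krt7, -1.58 and -1.49 for the Krt8 probes, -1.31 for Krt18 and -1.48 for Krt19. On slide 3 alone, null arrays 1 and 2 minus the induced arrays was -0.86, -1.04, -1.03, -1.45 and -1.02 for Krt7, the Krt8 probes, Krt18 and Krt19. Lower keratin levels in null cells are thus seen within slides. The induced cells can be set against floxed cells on no single slide. With slide as a fixed block, which joins them through the null arrays and floxed array 3, induced minus floxed was 0.21 for Krt7 and 0.14 for Krt18, the opposite direction, and -0.54, -0.46 and -0.46 for the Krt8 probes and Krt19. The part of the slides in the difference between induced and floxed cells was not tested.

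**Figure D2:**
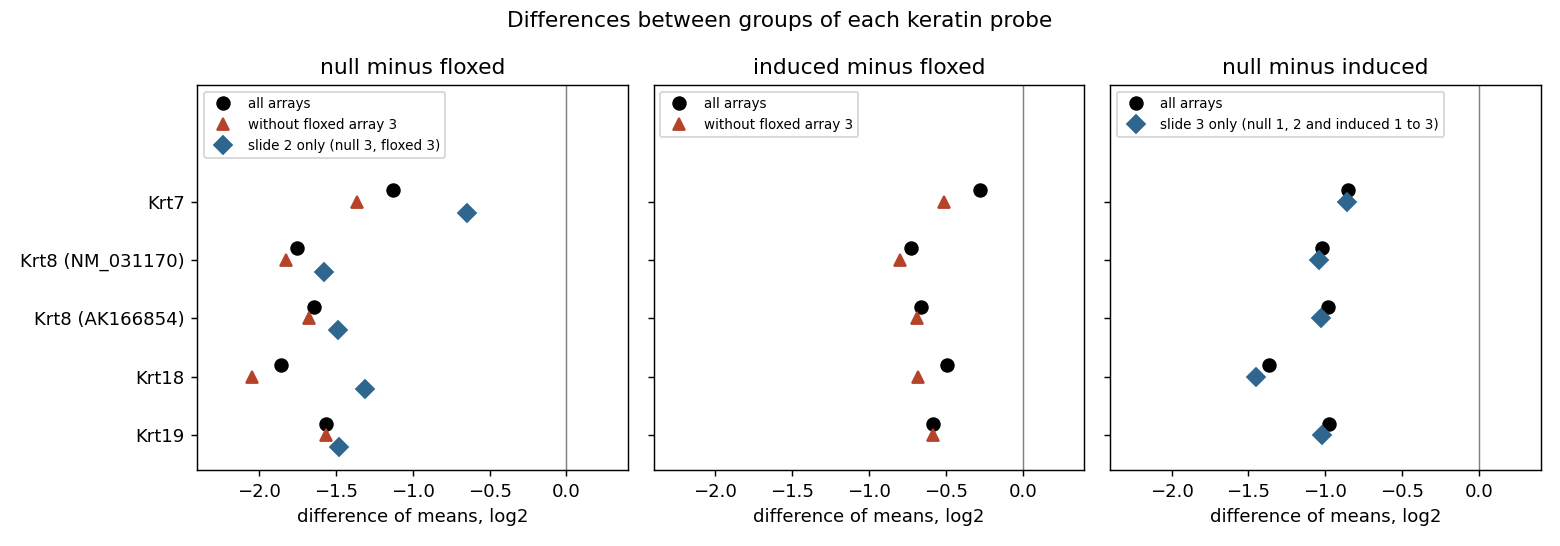
Differences between group means (log2) of each keratin probe. Circles use all arrays, triangles leave out floxed array 3 and diamonds use 1 slide; null minus floxed and null minus induced are below 0 in every version, and induced minus floxed runs from -0.80 to -0.28 in the versions shown.

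Across arrays the 4 keratins differed in how closely they ran together. Likeness was taken as the root mean square difference over the 9 arrays between the log2 levels of 2 genes, each centred on its own mean, among 13077 genes with an ordinary name. Krt8 and Krt19, a type II and a type I chain from different chromosomes, were each other's most similar gene, at 0.08 log2 units. Krt18 ranked 5 for Krt8 at 0.21 log2 units and 13 for Krt19 at 0.24 log2 units. Krt7 ranked 38 for Krt8 at 0.31 log2 units and, seen from Krt7, Krt19 was the nearest keratin at rank 333. Values were centred but not scaled, so this measure counts the size of a change as well as its course. Of the 4 keratins, Krt7 differed least between null and floxed cells (log2 -1.13). The nearest genes of Krt7 were Ttc28, Msln (mesothelin, a cell surface protein), Lrrc75a, Lgals1 (galectin-1) and Cd99, at 0.11 to 0.14 log2 units. Beside the keratins, those of Krt8 were Dppa3 (Stella, a factor of oocytes, germ cells and naive stem cells), Cryab (a small heat shock protein that binds intermediate filaments) and Scarf2, at 0.17 to 0.20 log2 units. Krt19 had the same 3 genes at 0.17 to 0.20 log2 units, and Col3a1, a collagen of connective tissue, at 0.21 log2 units. Among the nearest genes of Krt18 were Septin4, Cryab, Ly6c1 and Tagln (transgelin, an actin-binding protein) at 0.12 to 0.15 log2 units. These points share arrays, slides and scaling, and the likeness is a description.

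**Figure D3:**
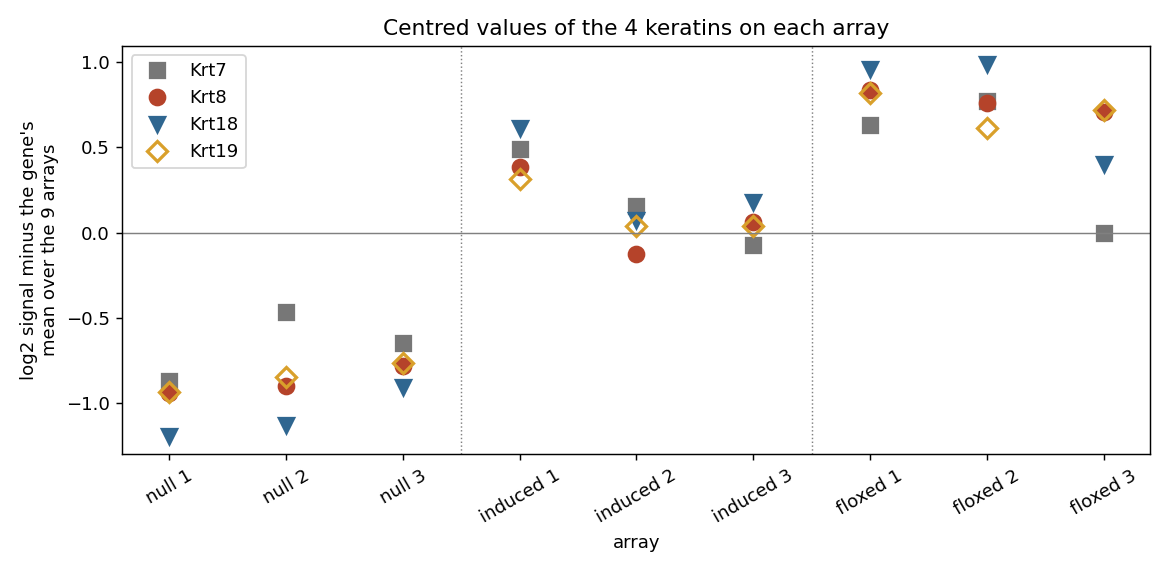
Log2 level of each keratin minus its own mean over the 9 arrays, by array (Krt8 by the AK166854 probe). Krt8 and Krt19 nearly coincide on most arrays, while Krt7 and Krt18 lie lower than Krt8 and Krt19 on floxed array 3.

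Few of the other keratins passed the test. Of 50 other keratin genes on the array, 17 passed the filter on dim probes and were tested. In null against floxed cells 2 of these fell, 0 rose and 15 did not pass (limma, adjusted p under 0.05 over all genes), where 1.11% of all genes fell and 0.738% rose. Their median log2 difference was 0.05, against 0.01 for all genes. Krt42, a type I keratin, fell by 0.60 on the log2 scale (limma adjusted p = 0.0220), and Krt85, a hair keratin, fell by 0.84 (limma adjusted p = 0.00507) at its brightest probe, while its other probe gave 0.26. In null against induced cells 1 of 17, Krt42, fell, by 0.56 (limma adjusted p = 0.0299), where 1.54% of all genes fell and 0.658% rose. In induced against floxed cells 0 of 17 passed in limma. An unadjusted limma p under 0.05 was reached by 2 of 17, and by 1177 of all 19913 genes. Without floxed array 3 Krt17 rose by 1.08 (limma adjusted p = 0.0197). With all arrays 0% of all genes fell and 0.00502% rose, so this comparison called 1 gene in all. Krt17, a type I keratin of basal and activated epithelium, was picked out after its values were seen. It had log2 levels of 1.30, 1.62 and 1.29 on null arrays, 0.41, 0.45 and 0.52 on induced arrays and -0.69, -0.54 and 1.05 on floxed arrays. Its means thus run in the opposite order to the simple epithelial keratins, and floxed array 3 lies near the null arrays; its difference of null from floxed cells, 1.46, did not pass (limma adjusted p = 0.0895). Without floxed array 3, Krt17 was 2.02 higher in null than in floxed cells (limma adjusted p = 8.58e-05), and 3 of 18 other keratins fell and 1 rose, at 11.9% of all genes lower and 13.1% higher. Without any one other array, 1 to 2 passed. Krt14, a marker of stratified epithelium, had means of -2.45, -2.54 and -2.30 in null, induced and floxed cells and did not pass (limma adjusted p = 0.622 for null against floxed cells). Krt5, its usual partner, was not tested, being well above background on at most 2, 1 and 1 arrays of the null, induced and floxed groups.

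Intermediate filament genes of other cell types gave 1 call, in the opposite direction. Of 16 tested, 1 rose, 0 fell and 15 did not pass in null against floxed cells, with a median log2 difference of 0.22. For this list and those below, 1.11% of all genes fell and 0.738% rose in that comparison. In null against induced cells 1.54% fell and 0.658% rose. Nes (nestin, of neural progenitors) had means of 2.01 ± 0.14, 0.96 ± 0.09 and 1.43 ± 0.10 (SD, n = 3 arrays each) in null, induced and floxed cells. It rose by 0.59 on the log2 scale in null against floxed cells (limma adjusted p = 0.0363) and by 1.05 against induced cells (limma adjusted p = 0.00387), where it was again the 1 call of 16. Vim (vimentin, the filament of mesenchymal cells) averaged 3.80 ± 0.05, 3.66 ± 0.08 and 3.71 ± 0.17 (SD, n = 3 arrays each) and did not pass (limma adjusted p = 0.619 for null against floxed cells). The nuclear lamins Lmna and Lmnb1 differed between null and floxed cells by 0.06 and -0.02 and did not pass either. In induced against floxed cells 0 of 16 passed in limma, and 2 had an unadjusted p under 0.05, as did 1177 of all 19913 genes. Without floxed array 3, 7 of 16 rose and 1 fell in null against floxed cells, at 13.1% of all genes higher and 11.9% lower. Without any one other array 0 passed, so the call of Nes against floxed cells is lost without any of those 8 arrays.

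Genes that anchor keratin filaments were split. Of 20 listed plakin, desmosome and hemidesmosome genes, 16 were tested; 2 fell, 0 rose and 14 did not pass in null against floxed cells, and their median log2 difference was -0.01. Dsp encodes desmoplakin, which ties keratin filaments to desmosomes. It had log2 levels of -0.00, -0.17 and -0.16 on null arrays, 0.83, 0.70 and 0.73 on induced arrays and 1.01, 0.98 and 1.05 on floxed arrays. The 3 groups do not overlap, and floxed array 3 lies with the other floxed arrays, as for Krt8 and Krt19. Dsp fell in null cells by 1.13 against floxed cells (SE 0.09, limma adjusted p = 0.000763) and by 0.87 against induced cells (limma adjusted p = 0.00387), and its -0.26 in induced against floxed cells did not pass (limma adjusted p = 0.666). Dsc2 encodes the desmosomal cadherin desmocollin 2. Its probe was not well above background on any null array, and its log2 levels were -3.27, -3.59 and -3.38 on induced arrays and -2.73, -2.74 and -3.32 on floxed arrays. In null cells Dsc2 was at least 1.98-fold lower than in floxed cells (limma adjusted p = 0.000763) and at least 1.41-fold lower than in induced cells (limma adjusted p = 0.00351), by the processed signal. With normexp and in the series matrix its log2 differences were smaller than these bounds. They were -0.66 and -0.64 from floxed cells and -0.44 and -0.40 from induced cells.

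Dsp and Dsc2 passed in both comparisons of null cells without any one array, with the highest limma adjusted p at 0.0102 against floxed and 0.0297 against induced cells. Dsg2, the partner cadherin desmoglein 2, was -0.35, -0.25 and -0.20 on null arrays, 0.44, 0.32 and 0.38 on induced arrays and 0.75, 0.74 and -0.12 on floxed arrays. Floxed array 3 lies near the null arrays here, and the difference of null from floxed cells, -0.73, fell short of the threshold (limma adjusted p = 0.106), whereas leaving that array out gave -1.02, which passed (limma adjusted p = 0.000296). Jup (plakoglobin) and Plec (plectin, the linker to hemidesmosomes) differed between null and floxed cells by 0.01 and 0.09 and did not pass (limma adjusted p = 0.986 and 0.637). When floxed array 3 was left out, 3 of 16 linker genes fell and 2 rose in null against floxed cells. Of all genes, 11.9% then fell and 13.1% rose. In induced against floxed cells 0 of 16 passed in limma, and 3 had an unadjusted p under 0.05, as did 1177 of all 19913 genes.

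**Figure D4:**
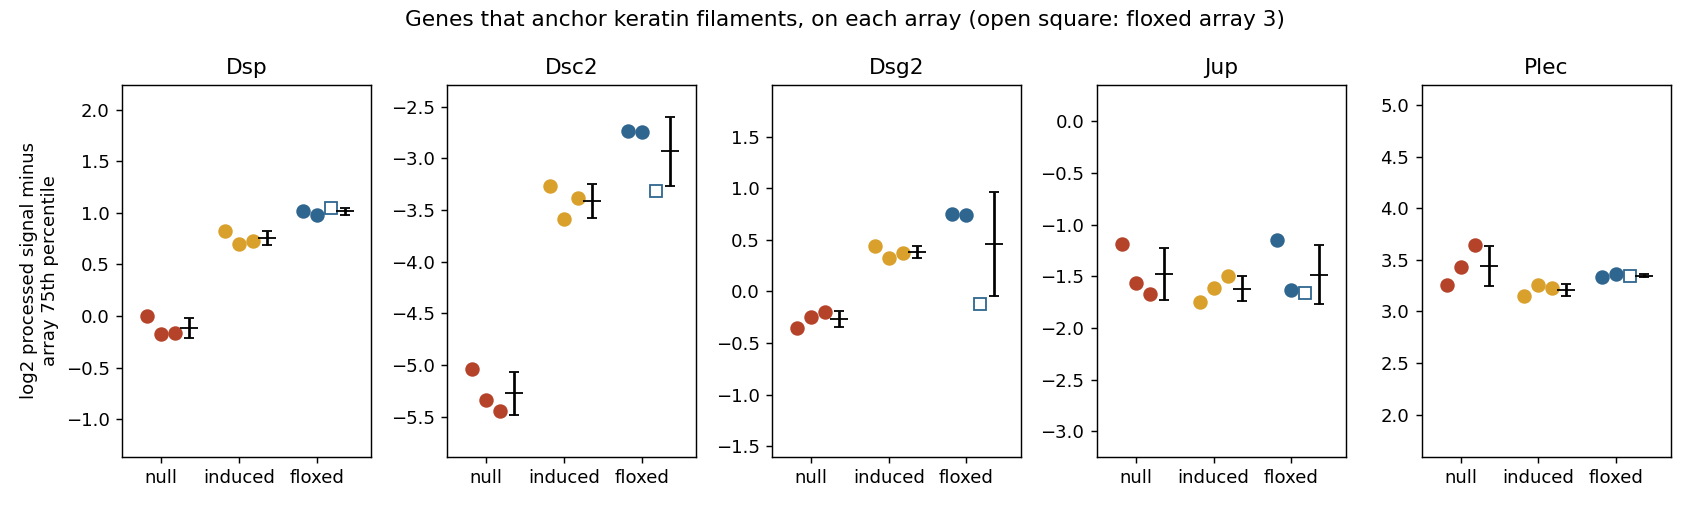
Log2 level of 5 keratin anchoring genes on each array, by group. Points are arrays, bars are the mean ± SD of 3 arrays and the open square is floxed array 3; Dsp shows 3 separate steps, the null values of Dsc2 are not well above background, and Jup and Plec overlap between null and floxed cells.

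Genes of epithelial cell junctions gave no call. Of 22 tested of 24 listed, 0 passed in limma in any of the 3 comparisons. An unadjusted limma p under 0.05 was reached by 6, 5 and 10 in null against floxed, induced against floxed and null against induced cells. Of all 19913 genes, 4542, 1177 and 4749 did so. Cdh1 (E-cadherin) averaged 4.16 ± 0.11, 3.89 ± 0.15 and 4.02 ± 0.09, and Epcam, an adhesion molecule of epithelial and ES cells, 1.15 ± 0.10, 0.93 ± 0.21 and 1.06 ± 0.22 in null, induced and floxed cells (SD, n = 3 arrays each). The null minus floxed differences were 0.14 for Cdh1 and 0.09 for Epcam. Other settings made calls, 1 of 22 with normexp. Without floxed array 3, 4 rose and 3 fell in null against floxed cells, at 13.1% of all genes higher and 11.9% lower. In null against induced cells, 17 of 22 differences were above 0 and 5 below with all arrays. Their median was 0.22, against 0.02 for all genes. In induced against floxed cells 2 were above 0 and 20 below, with a median of -0.18, against -0.0007 for all genes. In null against floxed cells 15 were above 0 and 7 below, with a median of 0.10, against 0.01 for all genes. Without floxed array 3, 7 rose and 0 fell in null against induced cells, at 8.46% of all genes higher and 9.65% lower.

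Transcription factors of the AP-1 and Ets families, which act on enhancers of the human KRT18 and mouse Krt8 genes, moved in both directions. Of 16 tested, 2 fell, 1 rose and 13 did not pass in null against floxed cells, with a median log2 difference of 0.12. Ets1 fell by 0.87 (limma adjusted p = 0.0220), with means of -2.55, -1.71 and -1.68 in null, induced and floxed cells. Fosl2 fell by 1.48 (limma adjusted p = 0.0408), with 2 of 3 null arrays well above background. Etv4 rose by 0.89 (limma adjusted p = 0.0220), with means of 3.49, 2.74 and 2.60. In null against induced cells Ets1 fell by 0.84 and Etv4 rose by 0.75 (limma adjusted p = 0.0264 and 0.0399). Jun, Fos and Ets2 differed by -0.18, 0.76 and 0.19 between null and floxed cells and did not pass (limma adjusted p = 0.448, 0.0929 and 0.250). Without floxed array 3, 3 rose and 2 fell, at 13.1% of all genes higher and 11.9% lower. Fos was among those that rose (1.02, limma adjusted p = 0.00126). It was well above background on 1 of 3 floxed arrays, so the size of its difference is poorly measured. With all arrays that difference ranged from 0.24 to 0.77 over the other settings. Without any one other array, 0 to 2 of 16 passed. In induced against floxed cells 0 of 16 passed in limma and 0 had an unadjusted p under 0.05, where 1177 of all 19913 genes did.

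Markers of cell types that make keratin, or that ES cultures can hold, moved with the keratins in part. Of 14 tested trophectoderm markers, 3 fell and 0 rose in null against floxed cells. Cdx2, a defining factor of trophectoderm, was not well above background on any null array. In null cells it was at least 3.84-fold lower than in floxed cells (limma adjusted p = 0.00452) and at least 2.73-fold lower than in induced cells (limma adjusted p = 0.0115) by the processed signal. With normexp background correction and in the series matrix its log2 differences were smaller than these bounds, at -1.02 and -1.16 from floxed cells, which passed (limma adjusted p = 0.0406 and 0.0205), and -0.72 and -0.76 from induced cells, which did not (limma adjusted p = 0.0924 and 0.0705). Its log2 levels were -1.95, -2.32 and -3.11 on induced arrays and -2.62, -2.13 and -1.16 on floxed arrays, so floxed array 3 was the highest of all. Gata3 and Hand1 were well above background on 1 of 3 null arrays each, so the size of their differences is poorly measured. Both passed as lower in null than in floxed cells (limma adjusted p = 0.0497 and 0.0160), and Hand1 also against induced cells (limma adjusted p = 0.0338). The log2 difference of Gata3 from floxed cells was -1.75, against -0.45 with normexp, where it did not pass (limma adjusted p = 0.0693), and -0.54 in the series matrix. That of Hand1 was -1.42, against -0.50 with normexp and -0.48 in the series matrix, where it did not pass (limma adjusted p = 0.0819), and its call against induced cells was lost in both (limma adjusted p = 0.137 and 0.270). The other 11 did not pass, and Elf5 and Tpbpa were well above background on no array. The mean log2 level of the 14 tested markers ranged from -1.45 to -1.30 on null, -1.07 to -0.95 on induced and -1.18 to -0.83 on floxed arrays. Their median log2 difference between null and floxed cells was -0.003, with 7 of 14 above 0 and 7 below. The lower mean on null arrays thus rests on a part of the markers, Cdx2, Gata3 and Hand1 among them. Leaving out floxed array 3 gave 5 markers that fell and 3 that rose, at 11.9% of all genes lower and 13.1% higher. Those that rose were Eomes (0.87), Gata2 (1.16) and Ascl2 (0.45) (limma adjusted p = 0.00395, 0.000692 and 0.0248). Gata2 was well above background on 1 of 3 floxed arrays. Without any one other array 1 to 3 passed. The part of trophectoderm-like cells in the keratin levels was not tested.

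Of 18 listed extraembryonic endoderm markers 9 were tested. Gata6, Sox7, Sox17, Afp and Ttr, which define that lineage, were well above background on no array. By contrast, Sparc, Lamb1 and Lama1 were so on every array. Their mean log2 levels were 6.84, 3.78 and 3.46 in null and 6.81, 3.53 and 3.22 in floxed cells. Thbd, well above background on 1 of 3 null arrays, was lower in null than in floxed cells without overlap. With all arrays Sparc, Lamb1, Lama1, Thbd, Amn, Cubn and Hnf4a passed in no comparison. Of the 9 null minus floxed differences, 7 lay above 0 and 2 below. Gata4 averaged -2.93, -2.70 and -2.97 in null, induced and floxed cells and did not pass (limma adjusted p = 0.917 for null against floxed cells). Col4a1 fell in null cells, with log2 differences of -0.76 from floxed and -0.67 from induced cells (limma adjusted p = 0.0350 and 0.0476), both calls being lost without any one of the other 8 arrays. The mean of the 9 markers ranged from -0.11 to -0.00 on null, 0.01 to 0.17 on induced and -0.12 to 0.06 on floxed arrays. When floxed array 3 was left out, 2 fell and 2 rose against floxed cells, at 11.9% of all genes lower and 13.1% higher.

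Of 13 fibroblast markers 6 were tested, and 4 of 6 fell and 0 rose in both comparisons of null cells. Col1a1, the main collagen of fibroblasts, had log2 levels of -3.20, -2.77 and -2.99 on null arrays, -0.92, -0.78 and -0.73 on induced arrays and -0.42, -0.48 and -0.88 on floxed arrays. Null arrays lie far below the rest, and induced arrays overlap floxed array 3. Col1a1 fell in null cells, with log2 differences of -2.39 from floxed and -2.18 from induced cells (limma adjusted p = 0.000631 and 0.00185). Col1a2, the second chain of the same collagen, fell likewise, with differences of -2.07 and -1.70 (limma adjusted p = 0.0134 and 0.0299). Col3a1 and Twist2 were not well above background on any null array, at least 2.27-fold and 1.91-fold lower than in floxed cells (limma adjusted p = 0.0152 and 0.000897) and at least 1.73-fold and 1.51-fold lower than in induced cells (limma adjusted p = 0.0487 and 0.00351), by the processed signal. With normexp and in the series matrix Col3a1 differed from floxed cells by -0.40 and -0.43 and did not pass (limma adjusted p = 0.108 and 0.166), and Twist2 differed by -0.63 in each and passed (limma adjusted p = 0.0233 and 0.0438), all smaller than those bounds. Both genes lost their calls against induced cells in both settings. Thy1, a surface protein of fibroblasts and also of neurons and T cells, went the other way, with means of 1.40 ± 0.16, 0.06 ± 0.15 and 0.03 ± 0.97 (SD, n = 3 arrays each) in null, induced and floxed cells. Null arrays lie above all others, and the differences of 1.37 from floxed and 1.34 from induced cells did not pass (limma adjusted p = 0.104 and 0.103). Without floxed array 3 they were 1.92 and 1.34 and passed (limma adjusted p = 0.000145 and 0.000667). Lum, Postn, Prrx1 and Pdgfrb were well above background on no array. The mean of the 6 tested markers ranged from -2.55 to -2.34 on null, -1.51 to -1.43 on induced and -1.26 to -1.19 on floxed arrays, a mean that Thy1 runs against. Leaving out floxed array 3, 4 of 6 fell and 1, Thy1, rose against floxed cells, at 11.9% of all genes lower and 13.1% higher. Without any one other array 2 to 4 passed. The part of fibroblasts, such as feeder cells, in the keratin levels was not tested, and the labels name no feeder layer.

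In induced against floxed cells 0 of 14 trophectoderm, 0 of 9 endoderm and 0 of 6 fibroblast markers passed in limma. An unadjusted limma p under 0.05 was reached by 1, 0 and 0 of them, and by 1177 of all 19913 genes. In that comparison 1 trophectoderm and 1 endoderm marker rose when floxed array 3 was left out, where 0.702% of all genes rose and 0.0802% fell. The 6 stem cell factors gave no call in limma in any comparison. In null against floxed, induced against floxed and null against induced cells, 1, 0 and 2 had an unadjusted limma p under 0.05. Of all 19913 genes, 4542, 1177 and 4749 did so. Their median log2 difference was -0.31 between null and floxed cells. Nanog averaged -0.87 ± 0.10, -0.24 ± 0.29 and -0.27 ± 0.37 (SD, n = 3 arrays each) in null, induced and floxed cells and did not pass (limma adjusted p = 0.134 for null against floxed cells).

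Of the 29 calls of named list genes in the comparisons of null cells, all 29 held without floxed array 3, and 11 held without any one array. These 11 were Dsp, Dsc2, Col1a1 and Twist2 in both comparisons, Krt85 and Cdx2 against floxed cells and Nes against induced cells. Of the 29, 20 held with normexp, 18 with the series matrix, 17 in both, 18 with the replicate block and 11 with no filter on dim probes. Dsc2 lost its call against induced cells with normexp and the series matrix (limma adjusted p = 0.0664 and 0.172) and against floxed cells with the series matrix (limma adjusted p = 0.0638). Ets1 lost both calls in both settings, at limma adjusted p = 0.0519 to 0.0939. With slide as a fixed block, null against floxed cells rests on slide 2, which held 1 array of each group. Induced against floxed cells is joined through the same slide. Calls and p-values of both comparisons are not given for that fit. Dsp was 1.21 lower in null than in floxed cells in that fit, and Dsc2, not well above background in null cells, was also lower. These are the differences of null array 3 from floxed array 3. In null against induced cells the same fit called 3249 of 19913 genes. Among them were 4 of 17 other keratins, 8 of 16 other intermediate filament genes, 5 of 16 linker genes and 7 of 22 junction genes. It also called 5 of 16 AP-1 and Ets factors, 5 of 14 trophectoderm, 2 of 9 endoderm and 6 of 6 fibroblast markers. These counts do not separate genes that rose from genes that fell.

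**Figure D5:**
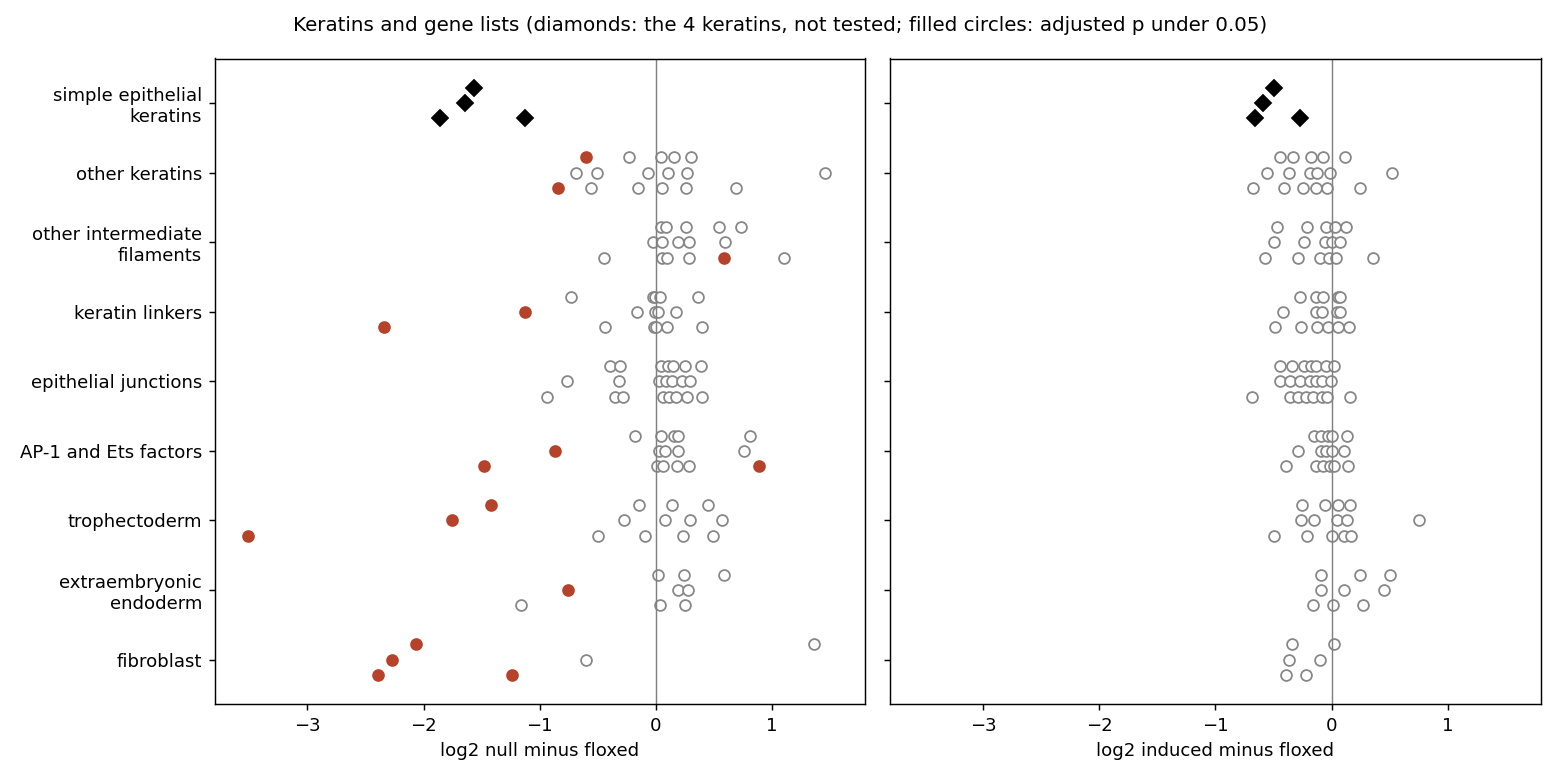
Log2 difference of null minus floxed cells (left) and induced minus floxed cells (right) for the 4 keratins (diamonds, not tested) and the tested genes of each list (circles, filled where the limma adjusted p was under 0.05). The vertical offset within a row has no meaning; in the left panel filled circles lie below 0 in 6 of the lists and above 0 in 2, and in the right panel there are none. Null values of Cdx2, Dsc2, Col3a1 and Twist2 were not well above background.

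Krt8 and Krt18 are adjacent genes on chromosome 15, where the type II keratins lie, although Krt18 is a type I chain; Krt7 lies farther along the same cluster, and Krt19 lies among the type I keratins on chromosome 11. The 12 tested genes nearest to the 4 keratins in gene order were picked by position after the keratin values were known. Of these 12, 1 passed in null against floxed cells. This was Tns2, next but 1 to Krt18, which rose by 0.90 against floxed and 1.07 against induced cells (limma adjusted p = 0.0339 and 0.0201). Eif4b, a translation initiation factor gene directly beside Krt18, had means of 4.86 ± 0.08, 5.02 ± 0.08 and 4.99 ± 0.03 (SD, n = 3 arrays each) in null, induced and floxed cells and did not pass (limma adjusted p = 0.388). Krt79 and Krt80, type II keratins of the same cluster, differed between null and floxed cells by 0.05 and -0.69 and did not pass.

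The starts of Krt8 and Krt18 are shown because these neighbours form 1 filament pair and were lower together. Each window runs from 250 bases before to 20 bases after the RefSeq start in GRCm38.p6, read 5′ to 3′ on the gene's strand, at chr15:102004323-102004592 (minus strand) for Krt8 and chr15:102027966-102028235 (plus strand) for Krt18. Capitals mark matches of 5 motifs searched on both strands: TATAA of the TATA box, TGANTCA of AP-1 sites, GGGCGG of the GC box, ATGCAAA from the octamer bound by Oct factors, and CCGGAA of Ets sites.
Krt8: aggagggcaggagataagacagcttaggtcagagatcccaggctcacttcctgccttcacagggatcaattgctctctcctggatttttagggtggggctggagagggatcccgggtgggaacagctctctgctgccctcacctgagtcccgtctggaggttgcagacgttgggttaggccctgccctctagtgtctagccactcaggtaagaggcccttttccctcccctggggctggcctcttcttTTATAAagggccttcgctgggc
Krt18: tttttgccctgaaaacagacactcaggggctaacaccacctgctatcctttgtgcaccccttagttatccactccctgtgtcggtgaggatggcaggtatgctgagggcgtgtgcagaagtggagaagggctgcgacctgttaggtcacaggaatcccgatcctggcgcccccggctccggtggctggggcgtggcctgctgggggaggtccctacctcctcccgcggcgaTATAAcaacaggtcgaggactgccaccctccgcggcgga

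TATAA matched in both windows, starting 19 bases before the annotated start of Krt18 and across the annotated start of Krt8, where the matches on the 2 strands overlap. The other 4 motifs had no match in either. In the window of Krt7 4 GC boxes matched and no other motif did. Of 32851 promoters, 23.7% held TATAA, 34.1% GGGCGG, 7.23% TGANTCA, 13.7% CCGGAA and 4.36% ATGCAAA in a window of that length. These are matches of letters, not sites, and sites outside the windows were not searched.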

How the data were processed

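Cy3-labelled RNA of mouse ES cells was measured on 9 Agilent 1-colour arrays. The deposited intensity values are those of Agilent Feature Extraction, version 10.7.3.1 in the file headers. Its processed signal is background-subtracted and not scaled between arrays, and the files also hold other values, such as flags for spots well above background, deposited per the file headers. The deposited series matrix holds the mean signal intensity, within 1% of the scanner value for 100% of values, and 0 of its columns were unmatched.

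Control and outlier spots were left out, spots of a probe averaged, and log2 values scaled to the 75th percentile. Probes well above background on all 3 arrays of a group were kept and the brightest probe stood for a gene. Probes were named through RefSeq accessions of GRCm38.p6 (27235) or as in the files (28446), and promoters are RefSeq's. A 3-group limma 3.58.1 fit (R 4.3.3; two-sided, Benjamini-Hochberg over 19913 genes, threshold 0.05) gave the p-values. "At least N-fold" bounds use the lowest signal well above background on each array. On simulated data with 200 changed genes, 66% to 78% of changes of 1 and 92% to 96% of changes of 2 on the log2 scale were recovered, and 5.39% to 7.53% of calls were false. The simulated noise was independent between genes and arrays, with no slide effect and no shift of floxed array 3. These rates therefore do not describe the arrays used here. Between 47.4% and 57.9% of spots lay well above background, none was saturated, and the number of arrays limits precision.

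The keratins and the gene lists were chosen with earlier results of these data known. The text names Xpc, all keratin probes, up to 4 passing genes per list, direction and comparison, and a set of genes and cell type markers named whatever their values. It also names the 5 genes most like each keratin. Krt14, Krt17, Krt20, Krt79, Krt80, Eomes, Gata2, Ascl2, Thy1, Sparc, Lamb1, Lama1, Thbd, Amn, Cubn and Hnf4a were added after values were seen. So were the genes beside the keratins and the stem cell factors named. Same-numbered arrays did not deviate together (correlations of -0.11 to 0.09), so replicate numbers were not used to pair arrays. Alternatives were normexp, quantile and median scaling, the series matrix, no filter, averaged probes, slide and replicate blocks, and leaving out each array. One gene that the rule for named genes selects is not reported here.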

Additional observations from a re-analysis of the deposited data

How the results depend on the processing

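Null minus floxed and null minus induced stayed negative for all 5 keratin probes under each alternative, and no keratin difference moved by more than 1 SD when any one array was left out. The exceptions among the other settings follow; causes were not tested. The slide as a fixed block gave, for null minus floxed, -0.65 (Krt7), -1.58 and -1.49 (Krt8, NM_031170 and AK166854 probes) and -1.31 (Krt18), and for induced minus floxed 0.21 (Krt7) and 0.14 (Krt18), both reversed, and -0.54 and -0.46 (Krt8). Normexp and the series matrix gave -1.45 and -1.43 for null minus floxed of Krt19, -0.58 and -0.59 for that of Krt7 and -0.35 and -0.35 for null minus induced of Krt7.

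Of all genes in null against floxed cells, 368 were called. The count was 570 with normexp, 76 with no filter on dim probes, which tests more genes, 50 with slide as a fixed and 103 as a random block, and 71 to 4970 with an array left out, the highest without floxed array 3. In null against induced cells 438 were called, against 63 with no filter, 3249 and 1812 with slide as a fixed and random block, and 60 to 3612 with an array left out, again highest without floxed array 3. In induced against floxed cells 1 was called, against 0 with normexp, quantile scaling, the series matrix, no filter or slide as a random block, 3 with median scaling, 174 with slide as a fixed block and 0 to 156 with an array left out. Replicate numbers share only a number, and the replicate block gave 166 calls in null against floxed and 188 in null against induced cells.

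Genes of each list called in any comparison also moved, as did the counts over all genes. Without floxed array 3, 11.9% of all genes fell and 13.1% rose in null against floxed cells. In null against induced cells 9.65% then fell and 8.46% rose. Slide as a fixed and random block called 3249 and 1812 of 19913 genes in that comparison. With the fixed block, the list counts below equal those of null against induced cells alone. The share of all genes called in any comparison was not counted. AP-1 and Ets factors (3) gave 1 with the series matrix, 0 with no filter, 5 with either slide block and 0 to 6 with an array left out. Junction genes (0) gave 1 with normexp, 7 and 3 with slide as a fixed and random block and 11 without floxed array 3. Endoderm markers (1) gave 0 with no filter, 2 with either slide block and 0 to 4 with an array left out. Fibroblast markers (4) gave 2 with no filter, 6 with either slide block and 2 to 6 with an array left out. Linker genes (2) gave 1 with the series matrix, where Dsc2 missed the threshold (limma adjusted p = 0.0638), 5 and 4 with slide as a fixed and random block and 5 without floxed array 3. Other intermediate filament genes (1) gave 8 and 4 with slide as a fixed and random block and 10 without floxed array 3. Other keratins (2) gave 1 with median scaling, no filter, averaged probes or the replicate block, 4 with slide as a fixed block and 1 to 5 with an array left out. Trophectoderm markers (3) gave 1 with quantile scaling or no filter, 5 with slide as a fixed block and 1 to 8 with an array left out.

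Small differences of named genes that changed sign were, with slide as a fixed and random block, Dsg2 (0.60 and 0.17, induced minus floxed), and for null minus floxed Epcam (-0.27 and -0.061), Vim (-0.15 and -0.0044) and Jup (-0.010 and -0.0004). As a fixed block alone it reversed Col1a1 (0.062, induced minus floxed) and Lmnb1 (0.015, null minus floxed). Normexp and the series matrix gave -0.031 and -0.0019 for Gata4 and the series matrix -0.0060 for Jup. With an array left out, Dsg2 ranged from -0.37 to 0.068 in induced minus floxed, and in null minus floxed Gata4 ranged from -0.16 to 0.17, Jup from -0.14 to 0.17, Lmnb1 from -0.27 to 0.32 and Plec from -0.0067 to 0.19. Krt7 was the dimmest measured keratin probe in processed signal.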
